A study of Mus musculus with 33 samples.

Results

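Genes of the actin cytoskeleton were followed in RNA from CD8 T cells that had been sorted out of mouse skin. They were the 10 rows, of 18054 gene rows in the first count table and 18052 in the second, whose symbols were Actb, Actg1, Pfn1, Tmsb4x, Tmsb10, Cfl1, Coro1a, Arpc2, Arpc3 and Tpm3. The list was chosen by the CPM of Actg1 and Pfn1, which differed between the 2 day 1 arms described below, so the arm values are given as a description with no test. All 10 genes were found in both tables and all 10 passed the filter on low counts.

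The mice were allergic to dinitrofluorobenzene (DNFB), a hapten that provokes contact dermatitis, and were treated with 0.01% TA or with acetone. TA stands for a topical glucocorticosteroid, going by the series title, and the labels do not spell it out. The first experiment used Nur77GFP mice, in which GFP follows the promoter of the early T cell receptor response gene Nur77 (Nr4a1). Its 17 libraries came from resident memory cells sorted as CD69+CD103+: GFP-positive and GFP-negative cells of the TA and of the acetone arm at day 1, 24 hours after DNFB was applied again (2 libraries each), GFP-negative cells of both arms at day 6, 144 hours after it (2 each), GFP-negative cells of TA-treated mice at day 0 (2), and GFP-negative cells of acetone-treated mice at day 0, before it (3). The second experiment used wild-type C57BL/6 mice and had 16 libraries, 2 per group: CD69+CD103+ cells at day 11 and day 42 after DNFB in TA and in acetone mice, and, at day 2, the 4 subsets with and without CD69 and CD103. The day 2 mice had neither TA nor acetone. All mice of both experiments had been sensitized to DNFB, controls included. Ages and numbers of pooled animals were not given, and no label ties the libraries of a group to different animals. The p-values below therefore reflect library-to-library spread, which may be technical.

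The table headers identify the set of each library and, in the first experiment, its GFP state, but do not name the group. Groups were matched by counting columns and codes. Day 0 acetone was taken as the only code with 3 GFP-negative libraries, and day 1 as the codes with GFP-positive libraries. In the second experiment, day 2 was taken as the prefix with 4 subset codes. Its CD69+CD103+ cells were taken as the code shared with all sets of the other prefixes, read as day 11 and day 42. The sets that this left without a single group carry neutral names. Arms I and II are the 2 day 1 arms, of which one is TA and the other acetone. Sets K, L and M are day 0 TA, day 6 TA and day 6 acetone in an order that is not known. Subsets U, V and W are the other day 2 subsets, and sets P, Q, R and S are the 4 day 11 and day 42 groups. Tests were made where this matching fixes both sides of a comparison, or as a test of any difference among sets.

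Library totals were 2442825 to 8515297 counts in the first experiment and 2937814 to 13629838 in the second. Mitochondrial transcripts took 22.2 to 36.7% and 12.8 to 21.3% of the counts. The CD8 T cell markers Cd8a, Cd8b1, Cd3d, Cd3e, Cd3g, Cd2 and Thy1 had counts in every library, with Cd8a at 441 to 1043 CPM (counts scaled to a fixed library size) in the first experiment. Keratinocyte markers were also present, at a summed 499 to 5914 CPM over 10 genes in the first experiment and 1859 to 6079 CPM in the second. Smooth muscle and pericyte markers did not pass 5.2 CPM in sum in the first. In the second they summed to 54.6 and 77.8 CPM in subset V and did not pass 11.6 CPM in the other sets. CPM values were scaled by library size with TMM factors separately in each experiment, so levels are not compared across the 2 experiments.

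Actin exists as monomers and as filaments, and cells move and form contacts by assembling filaments in one place and taking them apart in another. In T cells filaments build the leading edge of a migrating cell and the ring of the immune synapse, where signalling from the T cell receptor drives their assembly. Actb and Actg1 encode the cytoplasmic beta and gamma actins, which differ in a few residues at their amino end. Pfn1 (profilin 1) loads monomers with ATP and delivers them to growing ends, while Tmsb4x and Tmsb10 (thymosins beta 4 and beta 10) hold monomers in reserve. Arpc2 and Arpc3 are subunits of the Arp2/3 complex, which starts branches on existing filaments. Cfl1 (cofilin 1) severs old filaments, Coro1a (coronin 1A, found mainly in blood cells) binds filaments and the Arp2/3 complex, and Tpm3 (a tropomyosin) coats and stabilizes filaments. Actin genes are known targets of serum response factor (SRF), which binds CArG boxes and whose cofactors sense the pool of free actin monomers.

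The genes lie apart from each other in the mouse genome (GENCODE vM21, GRCm38, all protein-coding). Actb spans chr5:142903115-142906754 on the minus strand. Actg1 spans chr11:120345690-120348542 and Pfn1 chr11:70651850-70654644, both on the minus strand. Tmsb4x lies at chrX:167207093-167209315, Tmsb10 at chr6:72957347-72958748 and Coro1a at chr7:126699773-126707787, all on the minus strand. On the plus strand lie Cfl1 at chr19:5490455-5495201, Arpc2 at chr1:74236084-74268209, Arpc3 at chr5:122391878-122414184 and Tpm3 at chr3:90072649-90100902. CEL-seq2 reads the 3′ end of transcripts, so the last 500 bases of each gene's longest coding transcript were searched in all 75-base windows for exact copies in other genes' transcripts. No window of Actb, Actg1, Pfn1, Tmsb4x, Cfl1, Coro1a, Arpc2 or Arpc3 had one, so reads of Actb and Actg1 are separable there. For Tmsb10, 202 of 426 windows (47.4%) also occur in Gm9844 or Gm3788, and for Tpm3, 190 of 426 (44.6%) occur in Tpm3-rs7. The counts of Tmsb10 and Tpm3 may therefore include or miss reads of these copies, and how the authors' counting placed them is not given. Cfl1 and Coro1a overlap Snx32 and Bola2 on the opposite strand, and use of the strand in counting is not given either.

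Promoters were read from RefSeq windows (GRCm38.p6), which were found for 9 of the 10 genes, all but Actb. The 250 bases before the transcription start are shown for 4 genes, the 2 for which the list was drawn up and the 2 with the largest GFP differences, with a CArG box in capitals where one was found. Those of Actg1 are chr11:120348496-120348745, of Pfn1 chr11:70654651-70654900, of Tmsb4x chrX:167209219-167209468 and of Coro1a chr7:126704817-126705066 (the first of 2 RefSeq windows), all minus strand and printed 5′ to 3′.
Actg1: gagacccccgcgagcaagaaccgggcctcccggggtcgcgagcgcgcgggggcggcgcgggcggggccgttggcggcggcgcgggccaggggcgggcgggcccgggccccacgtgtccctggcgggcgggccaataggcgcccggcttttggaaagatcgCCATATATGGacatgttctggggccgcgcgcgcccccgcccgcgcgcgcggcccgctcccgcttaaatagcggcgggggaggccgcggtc
Pfn1: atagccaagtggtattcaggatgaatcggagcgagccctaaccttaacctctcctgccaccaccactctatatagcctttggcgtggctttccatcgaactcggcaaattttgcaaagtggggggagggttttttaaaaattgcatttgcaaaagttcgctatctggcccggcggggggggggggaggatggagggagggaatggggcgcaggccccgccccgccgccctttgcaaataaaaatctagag
Tmsb4x: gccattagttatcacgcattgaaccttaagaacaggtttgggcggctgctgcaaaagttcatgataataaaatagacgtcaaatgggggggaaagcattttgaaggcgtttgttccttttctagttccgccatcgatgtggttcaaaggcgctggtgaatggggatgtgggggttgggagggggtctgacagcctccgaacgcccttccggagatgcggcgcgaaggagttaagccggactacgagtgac
Coro1a: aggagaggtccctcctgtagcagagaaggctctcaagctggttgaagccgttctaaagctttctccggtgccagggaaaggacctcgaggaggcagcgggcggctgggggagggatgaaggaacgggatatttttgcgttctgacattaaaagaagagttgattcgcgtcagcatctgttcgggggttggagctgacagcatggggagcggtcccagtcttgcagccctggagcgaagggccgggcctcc
The search covered both strands of these 250 bases. A CArG box was found in 1 of the 9 genes, Actg1, from 90 to 81 bases before the start, and in 1.47% of 32851 promoter windows of the same length. The promoter of Actb had no window and was not searched, so the 2 actins are not compared here. The AP-1 site TGANTCA and the glucocorticoid response element AGAACANNNTGTTC were found in none of the 9 genes' windows, and in 6.75% and 0.0304% of all windows. These matches describe the letters of the windows only. The starts are those of RefSeq and differ from the GENCODE gene spans given above. Of the windows shown, those of Actg1 and Tmsb4x lie partly within these spans and that of Coro1a wholly.

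The day 1 arms were compared first, since the list was drawn up from them. Among GFP-negative cells, the actins and most of their partners had lower CPM in arm II. Actb had 3841 and 3948 CPM in arm II, against 13562 and 10720 CPM in arm I. Actg1 had 2937 and 3395 CPM in arm II, against 7071 and 7892 CPM in arm I. The 2 arms did not overlap for either actin, and the log2 fold change of arm II over arm I was -1.64 for Actb and -1.24 for Actg1. Pfn1, which feeds monomers to filament ends, had 1231 and 1263 CPM in arm II, against 2479 and 2775 CPM in arm I, a log2 fold change of -1.07.

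The other partners of the actins were less uniform between the arms. Tmsb4x had 2611 and 2598 CPM in GFP-negative cells of arm II, against 7085 and 5696 CPM in arm I. Cfl1 had 1771 and 1821 CPM in arm II, against 4342 and 3593 CPM in arm I, and Tpm3 had 370 and 313 CPM in arm II, against 662 and 623 CPM in arm I. Their log2 fold changes were -1.30, -1.14 and -0.91. Tmsb10 (-0.26), Coro1a (-0.33), Arpc3 (-0.11) and Arpc2 (-0.04) differed less, and the libraries of both Arp2/3 subunits overlapped between the arms. In all, 8 of the 10 genes had both arm II libraries below both arm I libraries in GFP-negative cells and none had both above, where 27.9% and 19.8% of all genes did. The share of all 11588 genes called between the arms was 6.69% (1.98% higher and 4.7% lower in arm II), and nothing is read from these counts, since these values chose the list.

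Among GFP-positive cells both arm II libraries lay below both arm I libraries for 4 of the 10 genes and above them for 2, where 26.8% and 17.2% of all genes did. Actg1 had 4117 and 4614 CPM in arm II, against 7138 and 7644 CPM in arm I, a log2 fold change of -0.76. Tpm3 had 325 and 369 CPM in arm II, against 634 and 652 CPM in arm I, a log2 fold change of -0.89 that was close to that of GFP-negative cells. Actb (-0.53) and Tmsb4x (-0.50) were also lower in arm II with no overlap. Pfn1 had 1569 and 2095 CPM in arm II, against 1650 and 1699 CPM in arm I, so its arms overlapped. Tmsb10 was higher in arm II, at 1460 and 1292 CPM, against 940 and 1053 CPM in arm I. Actb, Actg1, Tmsb4x and Tpm3 were thus lower in arm II without overlap in both GFP states, while the libraries of Pfn1 and Cfl1 overlapped in GFP-positive cells. Whether the arm difference differs between the GFP states was not tested. The share of all genes called between the arms in GFP-positive cells was 3.17% (0.923% higher and 2.24% lower in arm II).

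Other measures moved with the arms. GFP-negative libraries of arm II had 2442825 and 2519106 counts, 35.8 and 36.7% of them mitochondrial, against 5440609 and 6741144 counts and 28.6 and 28.4% in arm I. The summed markers of proliferating cells (Mki67, Top2a, Stmn1, Birc5, Tuba1b and Tubb5) were 532 to 554 CPM in GFP-negative cells of arm II and 1357 to 1692 CPM in those of arm I, with all 6 lower in arm II. Mononuclear phagocyte markers, which include antigen presentation genes, summed to 7.42 to 43.3 CPM in arm II and 783 to 863 CPM in arm I, and keratinocyte markers to 511 to 687 CPM and 1902 to 2192 CPM. GFP-positive libraries of arm II had 2678738 and 3262545 counts, 30.1 and 29.3% of them mitochondrial, against 6291020 and 8515297 counts and 25.9 and 22.4% in arm I. In GFP-positive cells the proliferation markers summed to 398 to 468 CPM in arm II and 658 to 754 CPM in arm I, the phagocyte markers to 332 to 354 CPM and 744 to 880 CPM, and the keratinocyte markers to 499 to 539 CPM and 1191 to 1686 CPM. The CD8 T cell markers summed to 6023 to 6347 CPM in GFP-negative cells of arm II and 10464 to 11521 CPM in those of arm I. In GFP-positive cells they summed to 6897 to 7050 CPM in arm II and 8362 to 9492 CPM in arm I. The part of these measures in the differences of the actin genes was not tested. In bulk libraries of sorted cells, fewer cells of a type and less RNA per cell cannot be told apart.

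**Figure D1:**
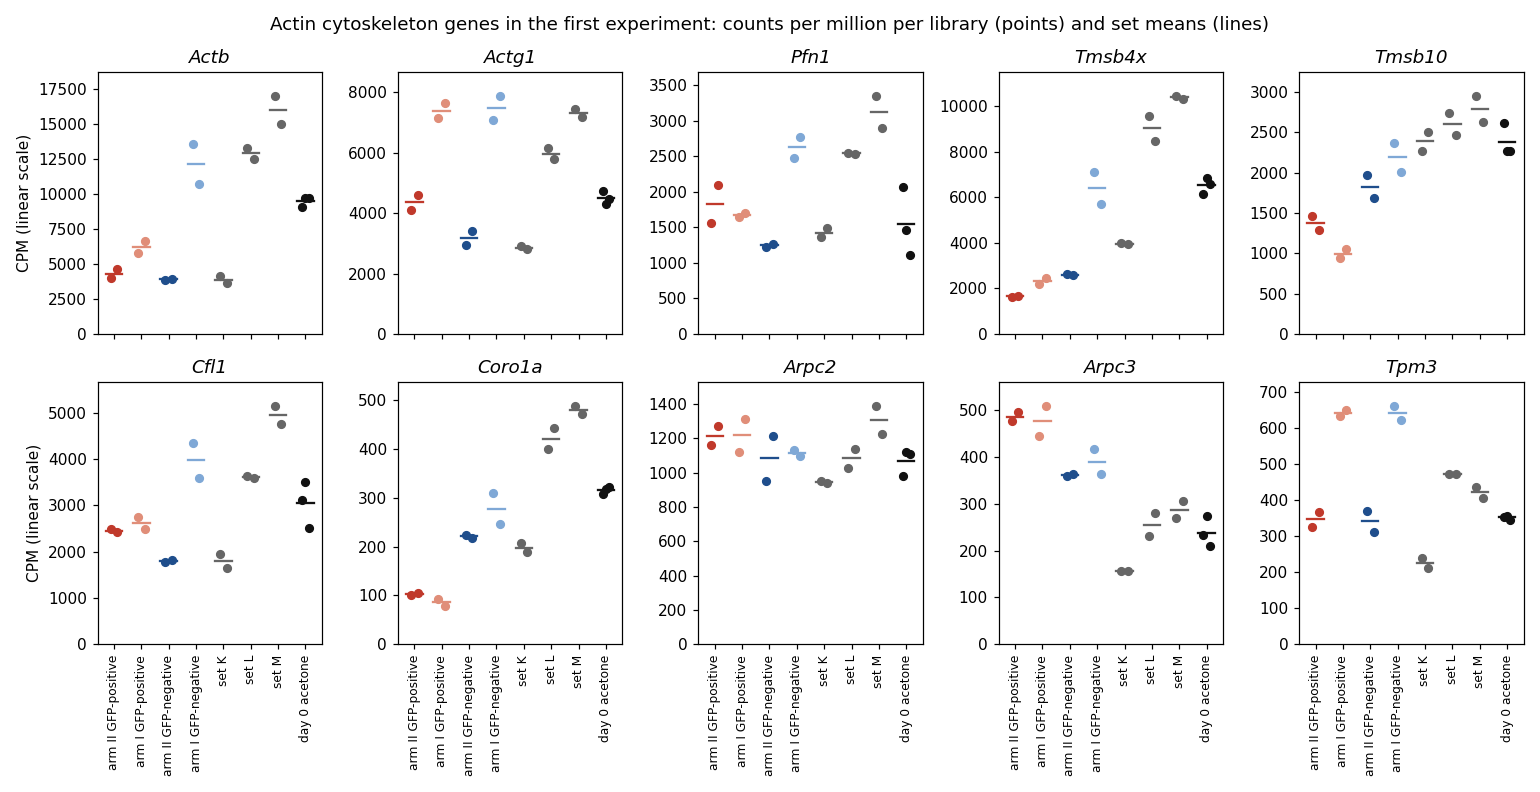
CPM (linear axis from 0, its own scale in each panel) of the 10 genes in the 17 libraries of the first experiment, with 1 point per library and a line at the mean of each set. Actb and Tmsb4x were lowest in the GFP-positive sets, arm II GFP-negative and set K, while Arpc3 was highest in the 4 day 1 sets.

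The GFP comparison asked how cells with recent receptor signalling (GFP-positive) differed from GFP-negative cells at day 1, as the mean over both arms. The monomer reserve genes Tmsb4x and Tmsb10 and the leukocyte coronin Coro1a fell in GFP-positive cells, as did Actb, while Actg1 and Arpc3 rose slightly. By the quasi-likelihood test of edgeR (p adjusted by Benjamini-Hochberg), 6 of the 10 genes passed, 2 higher and 4 lower, where 12.1% of all genes were called (5.59% higher and 6.51% lower). The median log2 fold change was -0.06 over the 10 genes and -0.03 over all 11588 genes tested.

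Coro1a showed the largest difference of the 10 genes. It had 101 and 105 CPM in GFP-positive arm II cells and 92 and 79 CPM in those of arm I, against 224 and 217 CPM in GFP-negative cells of arm II and 309 and 245 CPM in those of arm I. No GFP-positive library reached any GFP-negative one, and Coro1a fell by 1.39 ± 0.11 (log2, SE) with an adjusted p of 4.16e-08 (edgeR).

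Both thymosins fell as well, with no overlap between the GFP states. Tmsb4x had 1629 and 1675 CPM in GFP-positive arm II cells and 2211 and 2454 CPM in those of arm I, against 2611 and 2598 CPM in GFP-negative cells of arm II and 7085 and 5696 CPM in those of arm I. Tmsb4x fell by 1.06 ± 0.07 (log2, SE; edgeR adjusted p = 7.31e-09), with all 4 GFP-positive libraries below all 4 GFP-negative ones. Tmsb10 averaged 1186 ± 234 CPM in GFP-positive cells and 2009 ± 283 CPM in GFP-negative cells (SD, n = 4 each). It fell by 0.77 ± 0.09 (log2, SE; edgeR adjusted p = 6.15e-06).

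The 2 actins parted in this comparison. Actb fell by 0.41 ± 0.08 on the log2 scale (SE; edgeR adjusted p = 0.00140), averaging 5248 ± 1190 CPM in GFP-positive cells and 8018 ± 4901 CPM in GFP-negative cells (SD, n = 4 each). That mean hides unlike arms. In arm I the GFP-positive libraries, at 5771 and 6639 CPM, lay below the GFP-negative ones, at 13562 and 10720 CPM, while in arm II they lay slightly above them, at 3971 and 4611 CPM in GFP-positive cells against 3841 and 3948 CPM in GFP-negative cells. Actg1 rose by 0.22 ± 0.07 (log2, SE; edgeR adjusted p = 0.0428), a call that 9 of 14 alternative settings lost, with adjusted p between 0.00932 and 0.517. It was lost without either arm I GFP-positive library (0.0588 and 0.130), arm I GFP-negative A (0.167), arm II GFP-negative A (0.0860) or arm II GFP-positive B (0.156). Its GFP-positive libraries lay above the GFP-negative ones in arm II only, at 4117 and 4614 CPM in GFP-positive cells against 2937 and 3395 CPM in GFP-negative cells. In arm I they overlapped, at 7138 and 7644 CPM in GFP-positive cells and 7071 and 7892 CPM in GFP-negative cells.

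Pfn1 and Cfl1 did not pass the test over both arms. Pfn1 averaged 1753 ± 234 CPM in GFP-positive cells and 1937 ± 806 CPM in GFP-negative cells, a log2 fold change of -0.05 ± 0.14 (SE; edgeR adjusted p = 0.920). Cfl1 averaged 2531 ± 143 CPM in GFP-positive cells and 2882 ± 1291 CPM in GFP-negative cells, at -0.08 ± 0.10 (edgeR adjusted p = 0.693). In both genes the arms went opposite ways. Pfn1 had 1650 and 1699 CPM in GFP-positive cells of arm I, against 2479 and 2775 CPM in its GFP-negative cells, but 1569 and 2095 CPM in GFP-positive cells of arm II, against 1231 and 1263 CPM in its GFP-negative cells. These differences between the arms share the values that chose the list and were not tested.

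Of the Arp2/3 subunits, Arpc3 rose by 0.36 ± 0.11 (log2, SE; edgeR adjusted p = 0.0442). It had 476 and 497 CPM in GFP-positive arm II cells and 444 and 509 CPM in those of arm I, against 359 and 364 CPM in GFP-negative cells of arm II and 417 and 363 CPM in those of arm I. The groups did not overlap, but 11 of 14 settings lost the call, among them each of the 8 that left out 1 library (adjusted p between 0.0569 and 0.196). Arpc2 (0.15 ± 0.09, edgeR adjusted p = 0.357) and Tpm3 (0.01 ± 0.10, edgeR adjusted p = 1) did not pass. Without TMM factors the median of all genes in this comparison moved by -0.13, and neither Actg1 nor Arpc3 was called.

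Beside these changes, 4 of 6 proliferation markers were lower in GFP-positive cells, whose sums were 398 to 754 CPM against 532 to 1692 CPM in GFP-negative cells. Of 8 mononuclear phagocyte markers tested, 4 were higher, with sums of 332 to 880 CPM in GFP-positive cells and 7.42 to 863 CPM in GFP-negative cells. Mitochondrial transcripts took 29.3 and 30.1% of the counts in GFP-positive cells of arm II, against 35.8 and 36.7% in its GFP-negative cells, and 22.4 and 25.9% in GFP-positive cells of arm I, against 28.6 and 28.4% in its GFP-negative cells. Their part in the changes was not tested. The CD8 T cell markers summed to 6897 to 9492 CPM in GFP-positive cells and 6023 to 11521 CPM in GFP-negative cells.

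The number of Actg1 counts per Actb count in the same library, chosen for display after the values were seen and given without a test, separated the GFP states. It was 1.04 and 1.00 in GFP-positive arm II cells and 1.24 and 1.15 in those of arm I, against 0.765 and 0.860 in GFP-negative cells of arm II and 0.521 and 0.736 in those of arm I. Among the remaining GFP-negative sets it was 0.707 and 0.775 in set K, 0.463 and 0.462 in set L, 0.437 and 0.477 in set M, and 0.520, 0.444 and 0.461 at day 0 acetone. No other library of the first experiment reached the 4 GFP-positive ones. The ratio was not divided by transcript length and does not compare the abundance of the 2 actins.

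**Figure D2:**
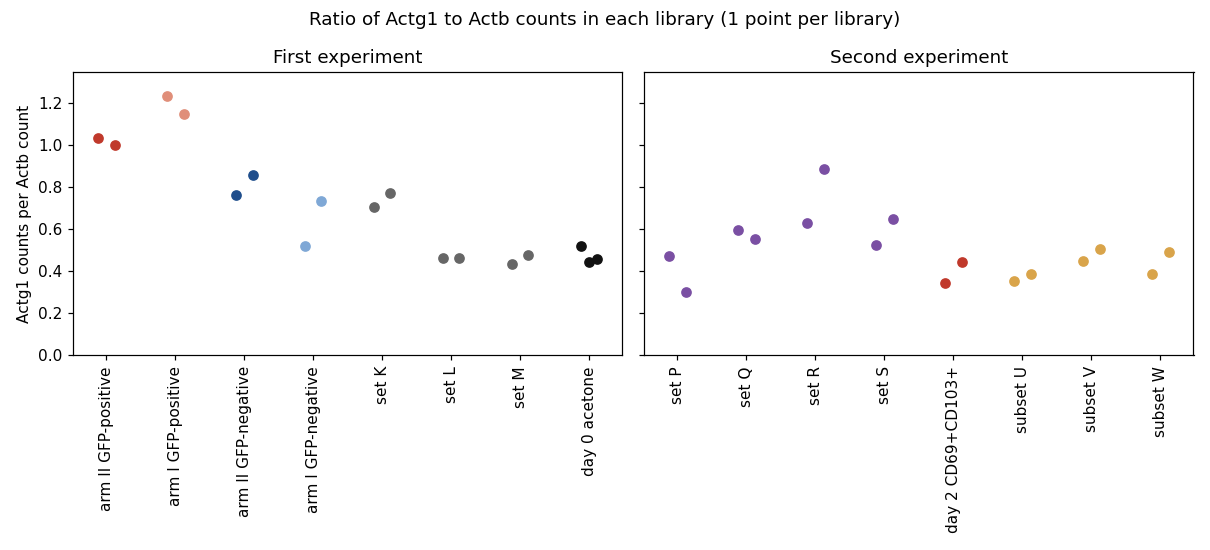
Actg1 counts divided by Actb counts in the same library (linear axis from 0), 1 point per library, for the 8 sets of each experiment. In the first experiment the 4 GFP-positive libraries sit between 1.00 and 1.24 and all others between 0.437 and 0.860.

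GFP-negative cells at day 1, as the mean of both arms, were set against GFP-negative cells at day 0 acetone. The day 1 mean includes the TA arm, while the day 0 cells came from acetone mice. Day and TA therefore cannot be told apart in this comparison. Arpc3 rose, Actb and Tmsb4x fell, and Tpm3 rose with a call that most settings lost. By edgeR's test 4 of the 10 genes passed, 2 in each direction, where 7.02% of all genes were called (3.12% higher and 3.91% lower). The median log2 fold change was -0.07 over the 10 genes and -0.12 over all genes.

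Arpc3, an Arp2/3 subunit, was the one gene whose libraries did not overlap. It had 359 and 364 CPM in arm II and 417 and 363 CPM in arm I, against 233, 274 and 209 CPM at day 0 acetone. It rose by 0.65 ± 0.12 (log2, SE; edgeR adjusted p = 0.00241) and passed in all 13 alternative settings. Its partner Arpc2 averaged 1100 ± 108 CPM at day 1 (SD, n = 4) and 1069 ± 77.6 CPM at day 0 (SD, n = 3) and did not pass (edgeR adjusted p = 0.875).

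For Actb the mean fell by 0.47 ± 0.09 on the log2 scale (SE; edgeR adjusted p = 0.00182), but the arms lay on opposite sides of day 0. Arm II had 3841 and 3948 CPM and arm I 13562 and 10720 CPM, against 9083, 9693 and 9713 CPM at day 0 acetone. Tmsb4x fell by 0.68 ± 0.08 (log2, SE; edgeR adjusted p = 1.73e-05), where arm II, at 2611 and 2598 CPM, lay below day 0 acetone, at 6136, 6857 and 6585 CPM, and arm I, at 7085 and 5696 CPM, lay around it. Tpm3 rose by 0.41 ± 0.11 (log2, SE; edgeR adjusted p = 0.0224), with 370 and 313 CPM in arm II and 662 and 623 CPM in arm I, against 354, 357 and 345 CPM at day 0. Its call was kept by 4 of 13 settings and lost without any 1 library but arm II B (adjusted p between 0.0716 and 0.125). Each of these means therefore stands for arms that differ.

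Coro1a (-0.35 ± 0.12, edgeR adjusted p = 0.0797), Tmsb10 (-0.25 ± 0.10, 0.129), Cfl1 (-0.19 ± 0.10, 0.310), Pfn1 (0.22 ± 0.15, 0.429) and Actg1 (0.11 ± 0.08, 0.424) did not pass. Some of these passed in other settings: Pfn1 without day 0 acetone A (adjusted p = 0.0341), Coro1a by DESeq2 (0.00605), with median-of-ratios scaling (0.0471) and without TMM (0.00838), Tmsb10 by DESeq2 (0.0299) and without TMM (0.00501), and Cfl1 without TMM (0.0151). All 6 proliferation markers were lower at day 1, with sums of 532 to 1692 CPM against 2469 to 2886 CPM at day 0 acetone, and 8 of 10 keratinocyte markers were lower, with sums of 511 to 2192 CPM against 3070 to 3490 CPM. Of 7 CD8 T cell markers tested, 5 were called, 1 higher and 4 lower. Their sums were 6023 to 11521 CPM at day 1 and 10378 to 11988 CPM at day 0 acetone. Mitochondrial transcripts took 35.8 to 36.7% of counts in arm II and 28.4 to 28.6% in arm I. At day 0 acetone they took 24.9 to 31.5%. The part of these measures was not tested. Without TMM factors the median of all genes moved by -0.18 and the share of calls that were higher fell to 23.0%, against 44.3% with TMM.

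Among the GFP-negative sets outside day 1, set K stood apart with low actins and sets L and M had high ones. A test of any difference among sets K, L and M and day 0 acetone was made, since the headers do not name the first 3. By edgeR's test 8 of the 10 genes passed, where 9.50% of all genes were called, and Tmsb10 (adjusted p = 0.493) and Arpc2 (0.122) did not. DESeq2 called Arpc2 (adjusted p = 0.0213).

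The order of the sets was the same for both actins, and no 2 sets overlapped. Actb had 4111 and 3619 CPM in set K, 13272 and 12541 CPM in set L and 17035 and 15034 CPM in set M, against 9083, 9693 and 9713 CPM at day 0 acetone (edgeR adjusted p = 4.03e-09). Actg1 had 2905 and 2803 CPM in set K, 6149 and 5788 CPM in set L and 7438 and 7174 CPM in set M, against 4720, 4307 and 4473 CPM at day 0 acetone (edgeR adjusted p = 9.53e-08). For both genes set K was lowest, then day 0 acetone, then L, then M.

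Tmsb4x and Cfl1 followed that order. Tmsb4x had 3994 and 3939 CPM in set K, 9565 and 8478 CPM in set L and 10454 and 10296 CPM in set M, against 6136, 6857 and 6585 CPM at day 0 acetone (edgeR adjusted p = 1.17e-07). Cfl1 had 1952 and 1642 CPM in set K, 3640 and 3593 CPM in set L and 5141 and 4750 CPM in set M, against 3121, 3495 and 2499 CPM at day 0 acetone (edgeR adjusted p = 3.75e-06). Coro1a was also lowest in set K, at 206 and 189 CPM, and highest in set M, at 488 and 471 CPM, with 400 and 442 CPM in set L and 307 to 322 CPM at day 0 acetone (edgeR adjusted p = 6.17e-05).

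Pfn1 did not separate set K from day 0. It had 1360 and 1497 CPM in set K, 2553 and 2537 CPM in set L and 3356 and 2898 CPM in set M, against 2071, 1467 and 1118 CPM at day 0 acetone (edgeR adjusted p = 7.43e-04). Arpc3 (edgeR adjusted p = 0.00638) and Tpm3 (1.64e-04) were lowest in set K, at 155 and 157 CPM and at 240 and 211 CPM. When set K was left out, a setting chosen after the data were seen, Arpc3 (adjusted p = 0.620) and Tpm3 (0.126) lost their calls and the other 6 genes kept theirs. Arpc3 also lost its call without either library of set K (0.0593 and 0.0544).

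Depth and proliferation markers were also lowest in set K. It had 2560156 and 2952120 counts with 36.3 and 34.9% mitochondrial, and proliferation markers at 782 to 828 CPM in sum. Sets L and M had 4439443 to 7708896 counts with 22.2 to 25.4% mitochondrial and proliferation markers at 4493 to 5576 CPM, and day 0 acetone 3488476 to 6982296 counts, 24.9 to 31.5% and 2469 to 2886 CPM. Mononuclear phagocyte markers summed to 9.45 and 22.9 CPM in set K and to 197 to 259 CPM in sets L and M, against 180 to 332 CPM at day 0 acetone. Keratinocyte markers summed to 1645 and 1685 CPM in set K, 1026 and 1078 CPM in set L and 5778 and 5914 CPM in set M, against 3070 to 3490 CPM at day 0 acetone. Their part in the actin levels was not tested.

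In the second experiment none of the 10 genes passed the test between the 4 day 2 subsets. Actb ranged from 16167 to 23748 CPM over the 8 day 2 libraries and Pfn1 from 4532 to 5585 CPM. CD69+CD103+ cells had 20062 and 16167 CPM of Actb, against 16954, 18913 and 23748 CPM as the lowest, median and highest of the other 6 libraries. By edgeR's test none of the 10 genes was called between CD69+CD103+ cells and the mean of the other subsets, where 0.368% of all genes were called (0.319% higher and 0.049% lower). None of the 10 had an unadjusted p under 0.05, beside 6.65% of all genes, and DESeq2 called 0 of the 10.

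The largest difference from the other subsets was that of Actg1, which had 6931 and 7211 CPM in CD69+CD103+ cells, below the 7373 to 9250 CPM of the other 6 libraries. Its log2 fold change was -0.25 ± 0.12 (SE), with an edgeR adjusted p of 0.781. The test of any difference among the 4 subsets also called none of the 10, where 1.21% of all genes were called. There 1 gene, Tmsb10, had an unadjusted p under 0.05 (edgeR adjusted p = 0.235), and DESeq2 called it alone (adjusted p = 0.0415), with 1717 and 1677 CPM in CD69+CD103+ cells, against 1740 and 1412 CPM in subset U, 2253 and 1922 CPM in subset V and 2567 and 2125 CPM in subset W. The SE of the 10 differences between CD69+CD103+ cells and the other subsets was 0.12 to 0.18 on the log2 scale.

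Between day 2 and the later days the genes differed more. The day 2 mice had neither TA nor acetone, while all later mice had TA or acetone. Time and treatment therefore cannot be told apart in this comparison. CD69+CD103+ cells at day 11 and day 42, taken as the mean of sets P, Q, R and S, had less Actb, Actg1, Pfn1, Cfl1, Coro1a and Tpm3 RNA than CD69+CD103+ cells at day 2. By edgeR's test 6 of the 10 genes fell and none rose, where 8.21% of all genes were called (3.33% higher and 4.89% lower). The median log2 fold change was -0.59 over the 10 genes and -0.07 over all 12236 genes tested.

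Pfn1 fell most. It had 3605 and 3974 CPM in set P, 2796 and 2378 CPM in set Q, 2151 and 1953 CPM in set R and 2293 and 2754 CPM in set S, against 5484 and 5467 CPM at day 2. All 8 later libraries lay below both day 2 libraries, and Pfn1 fell by 1.04 ± 0.11 (log2, SE; edgeR adjusted p = 3.31e-06). Actb fell by 0.98 ± 0.12 (log2, SE; edgeR adjusted p = 3.73e-05), with 12622 and 16381 CPM in set P and 6377 to 8687 CPM in sets Q, R and S, against 20062 and 16167 CPM at day 2. The second library of set P overlapped day 2 and the other 7 did not.

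Cfl1 and Tpm3 fell without overlap. Cfl1 averaged 3450 ± 890 CPM at the later days (SD, n = 8) and 6471 ± 126 CPM at day 2 (SD, n = 2), a fall of 0.94 ± 0.15 (log2, SE; edgeR adjusted p = 3.21e-04). Tpm3 averaged 368 ± 46.8 CPM and 661 ± 15.2 CPM in the same groups, a fall of 0.85 ± 0.14 (edgeR adjusted p = 7.51e-04). Coro1a fell by 0.70 ± 0.15 (edgeR adjusted p = 0.00451), with 234 to 402 CPM at the later days against 512 and 434 CPM at day 2. Actg1 fell by 0.47 ± 0.11 (edgeR adjusted p = 0.0118), with 4230 to 5998 CPM against 6931 and 7211 CPM. The call of Coro1a was lost without the first day 2 library (adjusted p = 0.157) and that of Actg1 without either one (0.0842 without the first and 0.144 without the second).

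The 4 genes that did not pass by edgeR were the thymosins and the Arp2/3 subunits. Tmsb4x had 7785 to 15162 CPM at the later days, against 11762 and 11458 CPM at day 2 (-0.30 ± 0.15, edgeR adjusted p = 0.268). Tmsb10 (-0.28 ± 0.12, 0.201) and Arpc2 (-0.36 ± 0.11, 0.0537) were below the day 2 libraries in all 8 later ones. Arpc3 was above them in all 8, at 232 to 302 CPM against 195 and 172 CPM, with a log2 fold change of 0.50 ± 0.18 (edgeR adjusted p = 0.102). DESeq2 called Arpc2 (adjusted p = 0.0158) and Arpc3 (0.0157), and by edgeR Arpc2 also passed with mitochondrial transcripts left out (0.0460), without set P 1 (0.0474) and without set S 1 (0.0381). A p that misses the threshold does not show that these levels were alike.

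**Figure D3:**
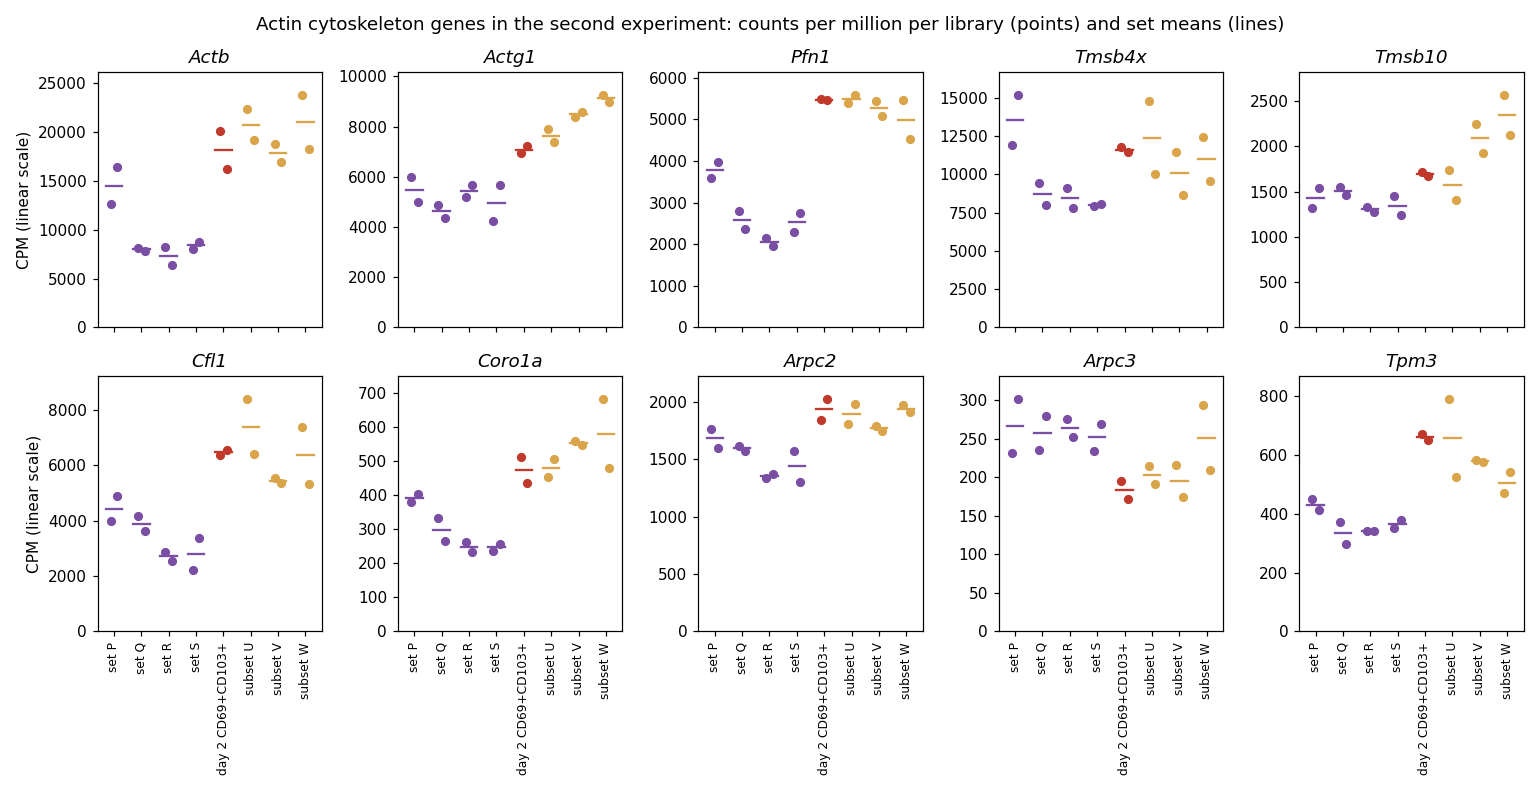
CPM (linear axis from 0, its own scale in each panel) of the 10 genes in the 16 libraries of the second experiment, with 1 point per library and a line at the mean of each set. Pfn1, Cfl1 and Tpm3 of sets P to S sit below all 8 day 2 libraries of the 4 subsets, while Arpc3 shows no such gap.

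Day 2 libraries differed from the later ones in other ways. The CD69+CD103+ day 2 libraries were deeper, at 11395588 and 11532881 counts, against 2937814 to 7407069 counts at the later days. Neutrophil markers summed to 2.21 to 19.2 CPM at the later days and to 125 to 131 CPM at day 2, with 2 of 3 tested called lower. Proliferation markers summed to 1293 to 3159 CPM at the later days and 1906 to 2135 CPM at day 2, and keratinocyte markers to 1859 to 5952 CPM and 3997 to 6079 CPM. Their part in the falls was not tested.

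Among the 4 later sets, Actb and Pfn1 differed by the test of any difference (edgeR adjusted p = 0.00513 and 0.00901), where 2.12% of all genes were called. Set P was the high one, at 12622 and 16381 CPM of Actb and 3605 and 3974 CPM of Pfn1, against 6377 to 8687 CPM and 1953 to 2796 CPM in sets Q, R and S. Among sets Q, R and S alone, a setting chosen after the data were seen, neither gene was called (adjusted p = 0.831 and 0.452). Without the second library of set P neither was called either (0.0986 and 0.0880). Tmsb4x, at 11913 and 15162 CPM in set P and 7785 to 9440 CPM in the other 3 sets, did not pass (adjusted p = 0.0714), but was called by DESeq2 (0.0116), without TMM (0.00523) and without a filter on low counts (7.60e-06). Cfl1 (edgeR adjusted p = 0.0994) was called in these 3 settings (0.0149, 0.0178 and 1.72e-04) and without set S 2 (0.0143), and Coro1a by DESeq2 (0.0202). Set P also had the highest proliferation marker sum of the later sets, 2672 to 3159 CPM against 1293 to 2029 CPM in sets Q, R and S, and the highest mononuclear phagocyte sum, 785 and 966 CPM against 241 to 654 CPM. Their part in the difference was not tested.

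The Actg1 to Actb count ratio was 0.475 and 0.304 in set P, 0.597 and 0.554 in set Q, 0.631 and 0.889 in set R and 0.524 and 0.651 in set S, against 0.345 and 0.446 in CD69+CD103+ cells at day 2. The other day 2 subsets had 0.354 to 0.506. The 6 libraries of sets Q, R and S thus lay above the 8 day 2 libraries, with no test given.

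**Figure D4:**
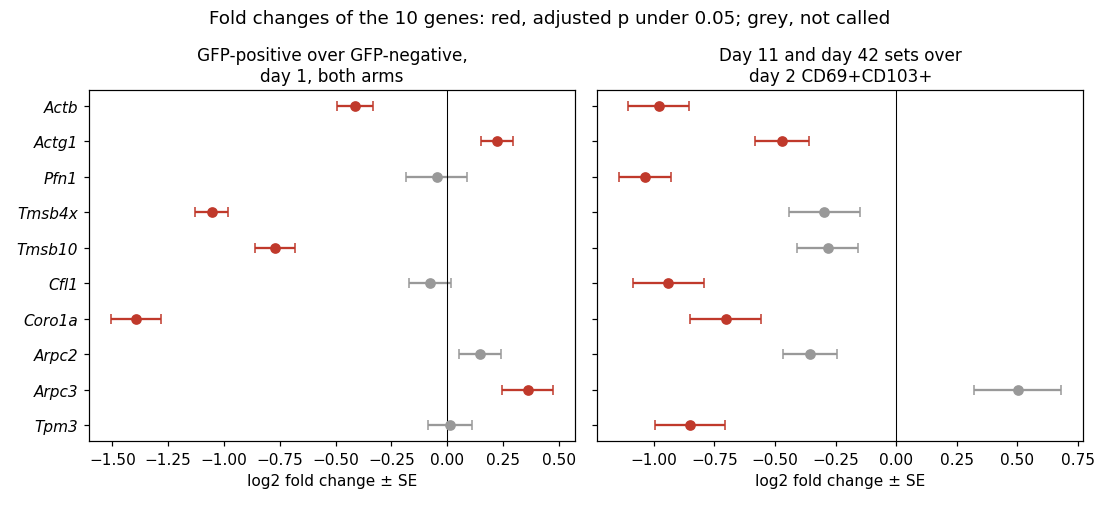
Log2 fold change and SE of the 10 genes for GFP-positive over GFP-negative cells at day 1 (n = 4 libraries each) and for day 11 and day 42 over day 2 CD69+CD103+ cells (n = 8 and 2), with an adjusted p under 0.05 in red. Tmsb4x and Tmsb10 were called at the left and not at the right, and Pfn1, Cfl1 and Tpm3 at the right and not at the left.

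A list of 89 further genes of actin regulation was read in the same comparisons, of which 85 were tested in each experiment. In GFP-positive over GFP-negative cells 16 of the 85 passed, 1 higher and 15 lower, beside the 12.1% of all genes, with a median log2 fold change of -0.15. The one that rose was the tropomyosin Tpm4, at 0.47 ± 0.13 (log2, SE; edgeR adjusted p = 0.0209), a call that 5 of 14 settings lost, 4 of them by leaving out 1 library (adjusted p between 0.0516 and 0.121). Rac2, the GTPase of blood cells that acts on the WAVE complex, fell by 1.39 ± 0.11 (edgeR adjusted p = 1.85e-08), at 180 ± 39.0 CPM in GFP-positive cells and 466 ± 59.7 CPM in GFP-negative cells (SD, n = 4 each).

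Filament crosslinkers and binders gave 3 of 9 called, all lower. Cnn2 (calponin 2) fell by 1.60 ± 0.15 (edgeR adjusted p = 4.92e-07), Tagln2 (transgelin 2) by 1.34 ± 0.15 (5.43e-06) and Flna (filamin A) by 1.61 ± 0.23 (7.41e-05). In the cofilin pathway 2 of 12 were called, among them Coro1b, a relative of Coro1a, which fell by 1.56 ± 0.20 (edgeR adjusted p = 2.02e-05). Tagln2 was at 53 and 63 CPM in GFP-positive arm II cells and 259 and 224 CPM in those of arm I, against 92 and 164 CPM in GFP-negative cells of arm II and 726 and 671 CPM in those of arm I, so its GFP states overlapped across the arms. No formin (of 4), capping or severing gene (of 8) or SRF gene (of 3) was called. Of all genes 12.1% were called in this comparison. The lists by role are short, so nothing is read from how many of each were called.

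At day 1 (both arms, TA included) against day 0 acetone, in GFP-negative cells, 13 of 85 passed, beside 7.02% of all genes. Of the 13, 2 were higher and 11 lower. The GTPase Rac1 rose by 0.66 ± 0.12 (log2, SE; edgeR adjusted p = 0.00179) and the capping protein subunit Capza2 by 1.23 ± 0.27 (0.00700). Rac2 fell by 0.61 ± 0.11 (edgeR adjusted p = 0.00143), so both Rac genes were called in opposite directions. Cnn2 fell by 1.14 ± 0.16 (9.86e-05), the severing protein gelsolin (Gsn) fell by 1.12 ± 0.17 (2.16e-04), Tagln2 by 0.72 ± 0.16 (0.00802), Tpm4 by 0.57 ± 0.14 (0.0160) and Coro7 by 1.72 ± 0.41 (0.0136). Gsn had 162 and 107 CPM in arm II and 214 and 197 CPM in arm I, against 349, 356 and 379 CPM at day 0 acetone, with no overlap. Leaving out 1 library ended the call of Capza2 (adjusted p = 0.0505 without day 0 acetone A), Coro7 (0.0512 without A, 0.0693 without C, 0.0608 without arm I B) and Tpm4 (0.0818 without A, 0.0513 without arm I B).

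Among sets K, L and M and day 0 acetone 22 of 85 passed, beside 9.50% of all genes. Those with the smallest adjusted p were Tagln2 (8.65e-07), Tpm4 (4.08e-06), the myosin light chain Myl6 (9.24e-06) and the capping protein Capg (4.13e-05). Tagln2 had 115 and 155 CPM in set K, 710 and 681 CPM in set L and 760 and 916 CPM in set M, against 551, 436 and 495 CPM at day 0 acetone. Set K was also lowest for Tpm4, at 87 and 113 CPM, and for Capg, at 118 and 106 CPM. With set K left out, Tagln2 (adjusted p = 0.0534), Tpm4 (0.387) and Capg (0.150) were not called.

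In the second experiment 0 of 85 were called between CD69+CD103+ cells and the other day 2 subsets, beside 0.368% of all genes. An unadjusted p under 0.05 (edgeR) was found for 4 of the 85, beside 6.65% of all genes. Among the 4 subsets 2 of 85 were called, beside 1.21% of all genes. These were the cofilin phosphatase Ssh2 (edgeR adjusted p = 8.38e-05) and the bundling protein Fscn1 (0.0436). Ssh2 had 245 and 234 CPM in CD69+CD103+ cells, 138 and 158 CPM in subset U, 443 and 414 CPM in subset V and 500 and 520 CPM in subset W, so each subset was apart from the others. Fscn1 was at 0 in both libraries of subset U and at 5.33 to 18.8 CPM in the other 6 day 2 libraries, and its call was lost without either library of subset U or of CD69+CD103+ cells, or without subset W 2 (adjusted p between 0.0554 and 0.222).

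At day 11 and day 42 (TA or acetone) against day 2 (neither), 20 of the 85 passed, 4 higher and 16 lower. Of all genes 8.21% were called, and the median log2 fold change of the 85 was -0.31. The crosslinkers gave 4 of 9 called, all lower, led by Tagln2, which fell by 1.45 ± 0.13 (log2, SE; edgeR adjusted p = 4.32e-07), with 207 to 416 CPM at the later days against 822 and 706 CPM at day 2. Myosin genes gave 3 of 7, all lower, with Myo1g at -1.07 ± 0.16 (2.87e-04) and the light chain Myl12a at -0.65 ± 0.12 (0.00230). The cofilin partner Wdr1 fell by 0.86 ± 0.15 (7.51e-04) and the Arp2/3 subunit Arpc5 by 0.70 ± 0.13 (0.00162). Without the first day 2 library Myl12a was not called (adjusted p = 0.145), and without the second Arpc5 was not (0.0546).

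The 4 genes that rose link filaments to membrane and adhesions or signal to assembly. Ezr (ezrin), which ties filaments to the membrane, had 340 to 484 CPM at the later days, against 239 and 236 CPM at day 2, and rose by 0.78 ± 0.16 (log2, SE; edgeR adjusted p = 0.00433). Zyx (zyxin) rose by 0.65 ± 0.17 (edgeR adjusted p = 0.0232), Dock8, an activator of Cdc42, by 0.97 ± 0.26 (0.0272), and the WAVE complex subunit Cyfip2 by 0.86 ± 0.24 (0.0348). None of these 4 calls was kept without either day 2 library, with adjusted p between 0.0796 and 0.455, and the call of Cyfip2 was also lost without 1 library of set P, R or S and that of Dock8 without 1 of set R. Among the 4 later sets Tagln2 (edgeR adjusted p = 0.0313), Myo1g (0.0468) and Zyx (0.0498) were called, beside 2.12% of all genes, and none of the 3 with set P left out (0.483, 0.115 and 0.133). Leaving out the second library of set P also ended all 3 (0.175, 0.112 and 0.118).

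**Figure D5:**
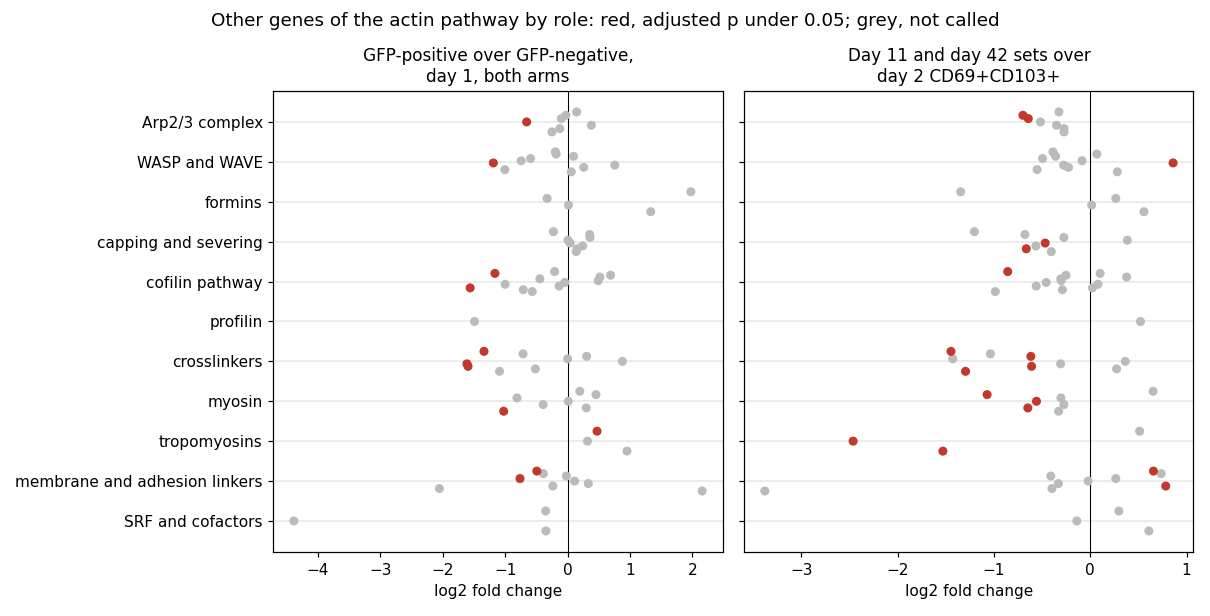
Log2 fold changes of 73 of the 85 tested genes of the actin pathway list, 1 point per gene in 11 rows by role, for GFP-positive over GFP-negative cells at day 1 and for day 11 and day 42 over day 2 CD69+CD103+ cells, with an adjusted p under 0.05 in red. Of the red points, 10 of 11 lie left of 0 in the first panel and 14 of 17 in the second.

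The genes most like Actb, Actg1 and Pfn1 were taken by Pearson's r of log2 CPM over all libraries of an experiment, among genes with a mean of 20 CPM or more. Over the 17 libraries of the first experiment (3708 genes compared) these included Lgals1 (0.976) and S100a11 (0.962) for Actb, Anxa2 (0.953), Ywhae (0.925) and Myo1g (0.924) for Actg1, and Arpc4 (0.837), Ndufb7 (0.832) and Tceb2 (0.829) for Pfn1. Over the 16 libraries of the second (4522 genes compared) they were Cyba (0.957), Myl12a (0.952) and Lcp1 (0.950) for Actb, Chst2 (0.944), Psmb10 (0.943) and Fam49b (0.932) for Actg1, and Slfn2 (0.969), Pou2f2 (0.958) and Psma4 (0.951) for Pfn1. Libraries of a set share their sorted population and much of their depth, so these values describe the libraries and carry no p.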

How the data were processed

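RNA of sorted skin CD8 T cells was sequenced as CEL-seq2 libraries, read as 75-base pairs, per the labels' protocols. The authors deposited raw counts per gene in 1 table per experiment; bcl2fastq 2.2, BWA 0.7.15, HTSeq and GRCm38 are named in the submitters' processing notes. Collapsing of molecular identifiers and use of the strand are not given in the labels or notes. Columns that could not be matched to a single group were used as unnamed sets, in no comparison that needs the name. Counts were tested with edgeR 4.0.16 (quasi-likelihood, TMM, filterByExpr) in R 4.3.3, 1 mean per set and all libraries of an experiment in a fit, with Benjamini-Hochberg adjustment over all tested genes and a threshold of 0.05. CPM are per TMM-scaled library size. DESeq2 1.42.0, other scalings, no filter, libraries without mitochondrial transcripts, a replicate block and leaving out libraries were alternatives. The scripts were tested on simulated data. Depth limits the precision of low counts, which may include amplification copies.

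All 10 genes were reported in each comparison. From the pathway list, up to 6 called genes per direction at 10 CPM or more, with the smallest adjusted p, were named, and up to 4 where there was no direction. The 3 genes with the highest Pearson's r (log2 CPM, prior count 2) were named for likeness. A few items that these rules select are not reported here. The members, lists and tests were chosen with earlier results of these data known. Libraries with the same replicate letter showed no correlated deviations, and no label says whether they came from the same animals. The main tests were unpaired.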

Additional observations from a re-analysis of the deposited data

Results flagged for a closer look

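Among 50 pairs of a gene and a group of 4 or more libraries, 3 had a library far from the rest. The rule flags about 1 in 20 groups when all libraries come from 1 population. These groups join several sets, so that rate does not apply and nothing is read from the count. Arpc3 in the first GFP-negative library of arm I was 417 CPM, above the other 3 GFP-negative libraries of day 1. Arpc3 in the first library of subset W was 293 CPM, and Tpm3 in the first library of subset U was 791 CPM, each the highest of the 6 libraries of the other day 2 subsets.

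For Actb, Pfn1 and Cfl1 the GFP difference went opposite ways in the 2 arms, with no overlap of libraries within either. The share of all genes with this pattern was not counted, so nothing is read from how many of the list had it. The log2 difference between GFP-positive and GFP-negative cells in arm II minus that in arm I was 1.11 for Actb, 1.20 for Pfn1 and 1.05 for Cfl1. The difference between the arms was not tested, since the list was chosen on the arms.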

How the results depend on the processing

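No value changed sign among those that passed the test. Values that did not pass changed sign in some settings, such as Actg1 at day 1 against day 0 acetone, at -0.07 without TMM. In counts of genes called, DESeq2 gave 1259 for day 1 against day 0 acetone, 1785 among sets K, L, M and day 0 acetone, 106 for CD69+CD103+ against the other day 2 subsets, 455 among the day 2 subsets (1 of the 10 genes) and 849 among the day 11 and day 42 sets (5 of the 10). Without a filter the last 3 became 173, 570 and 943 (4 of the 10). Without TMM 4 of the 10 were called among the day 11 and day 42 sets. With set K left out 483 genes were called, and with set P left out 168 and 0 of the 10; these settings, and no TMM, were chosen after the data were seen. Leaving out 1 library gave 1037 to 1385 genes (4 to 5 of the 10) for GFP, 511 to 739 (3 to 4) for day 1 against day 0, 744 to 1072 (7 to 8) among sets K, L, M and day 0, 18 to 74 (0 to 0) and 109 to 190 (0 to 0) for the day 2 comparisons, 401 to 1041 (4 to 7) for day 11 and day 42 against day 2, the lowest without its second day 2 library, and 199 to 317 (0 to 3) among the later sets. DESeq2 called 698 higher and 630 lower for day 11 and day 42 against day 2, 52.6% higher against 40.5% by edgeR. Without TMM the share of higher GFP calls was 34.1%, against 46.2%. Causes of these shifts were not tested. With the replicate block, day 1 against day 0 gave 466 genes, the GFP call of Actg1 (adjusted p = 0.0669) was lost, and so were the calls at day 1 of Tpm3 (0.0995), Coro7 (0.0865) and Tpm4 (0.0578). The 28 same-letter correlations of deviations ran from -0.060 to 0.033. They showed no shared effect of the letters over all tested genes, but cannot show that same-letter libraries came from different animals. The headers of the second experiment carry no letters, so the block was fitted in the first experiment alone. Libraries of arm II and set K were the shallowest of the first experiment, at 2442825 to 3262545 counts.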
